A study of Mus musculus with 6 samples.

Results

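Glycolysis and the pentose phosphate pathway were examined through 36 genes chosen by name: glucose and lactate transporters, the enzymes of each step with their isoforms, and 2 regulators, Pdk1 and Hif1a. All 36 had a row among the 27480 genes of the table, and Aldoa had 2, so that 37 rows were read. All 37 passed the filter on low counts, which left 16592 genes for testing. The data are poly(A) RNA sequencing of mouse OT1 CD8+ T cells, whose transgenic T cell receptor sees an ovalbumin (OVA) peptide on target cells. PTMA, or prothymosin alpha, is an acidic protein of the nucleus, and a construct that overexpresses it was present in the cells of 3 libraries. The cells of the other 3 had the empty overexpression vector. The labels give the genotype as WT in both groups, and all cells were stimulated with OVA peptide for 48 h. They do not give the age or sex of the mice, the share of cells that carried a construct, the species of the PTMA sequence, or whether each replicate had its own animal or culture. The tests therefore rest on the spread among libraries, part or all of which may be technical.

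Glycolysis splits glucose into pyruvate in the cytosol, with ATP made at the phosphoglycerate kinase and pyruvate kinase steps, and lactate dehydrogenase turns pyruvate into lactate so that NAD is returned to the pathway. The pentose phosphate pathway branches off at glucose phosphate, yields NADPH in its oxidative arm and ribose for nucleotides, and returns carbon to glycolysis through transketolase and transaldolase. Activated CD8+ T cells are known for a strong switch to glucose uptake and lactate release, in which the transcription factors Myc and HIF take part.

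Total counts ran from 65548729 to 66767589 in the PTMA libraries and from 54989408 to 63011584 in the vector libraries. Levels per library are given as CPM, counts relative to the size of the library after TMM scaling, and each log2 fold change (PTMA minus vector) comes from edgeR's quasi-likelihood test with Benjamini-Hochberg adjustment over all 16592 genes. Ptma had 1152, 1346 and 1271 CPM in the PTMA libraries and 848, 783 and 1145 CPM in the vector libraries, a log2 fold change of 0.44 (SE 0.13) with an adjusted p of 0.951 in the same edgeR test. In all libraries the cells carried the RNA of CD8+ T cells, with a summed level of 10 markers such as Cd3e, Cd8a and Lck of 6886 to 7391 CPM in PTMA libraries and 6800 to 7366 CPM in vector libraries. Summed markers of CD4 T cells, B cells, red cells, stroma, adipocytes, muscle and neurons each stayed at or under 6.69 CPM in PTMA libraries and 6.67 CPM in vector libraries. NK markers summed to 40.9 to 45.5 CPM in PTMA libraries and 48.3 to 50.1 CPM in vector libraries. Most of this sum and its group difference came from Eomes, with means of 33.32 CPM in PTMA libraries and 38.92 CPM in vector libraries. Klrb1c was level, with means of 10.32 CPM in PTMA libraries and 10.23 CPM in vector libraries. The remaining NK marker, Ncr1, was at 0.06 CPM in PTMA 3 and at 0 in every other library. Keratinocyte markers summed to 1.37 to 9.38 CPM and 1.86 to 24.6 CPM in the same order of groups. Myeloid and dendritic markers summed to 362 to 403 CPM in PTMA libraries and 354 to 383 CPM in vector libraries. Most of this came from Ccr7, which T cells also express. The dendritic genes Fscn1 and Ccl22 were higher in all 3 PTMA libraries (adjusted p = 0.318 and 0.199 in edgeR). Ccr7, Cd68, Flt3 and Xcr1 had higher means in PTMA libraries, Itgax and Csf1r lower ones, and all of these overlapped between the groups. The 4 oocyte markers are given below beside Ldhb. In bulk RNA, fewer cells of a type and less RNA per cell cannot be told apart.

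No gene of the pathway passed the adjusted threshold of 0.05 in either direction in edgeR's test. Across all genes 2 did, 0.0121% of those tested, and the adjusted p of the 36 genes lay between 0.951 and 0.979. At an unadjusted p under 0.05, Aldoa, Eno1, Pkm and Ldha were higher in PTMA libraries, where 1.92% of all genes were, and Hk2 was lower, where 2.72% of all genes were. DESeq2, which called 42 genes or 0.253% of all, called 0 of the pathway too. The differences of pathway genes described below are therefore levels in these 6 libraries, none of them past the threshold.

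The direction was mixed, but the most abundant enzymes leaned one way. Of the 37 rows, 24 had a log2 fold change above 0, against 46.8% of all genes, and the median was 0.055 against -0.015 over all genes. Abundance itself went with direction in these data: of the 2362 genes with a mean of at least 100 CPM, 67.5% had a fold change above 0. Of the 21 pathway genes at that level 18 did, with a median log2 fold change of 0.10 against 0.04 for all genes so expressed. Of the 15 pathway genes under 100 CPM, counting Aldoa by its main row, 6 did, with a median of -0.03. The 36 genes together summed to 14360, 13840 and 13380 CPM in the PTMA libraries and 12770, 13080 and 12550 CPM in the vector libraries, so that the groups did not overlap on this scale. As a share of the raw counts they took 1.42%, 1.36% and 1.34% in PTMA libraries and 1.301%, 1.34% and 1.24% in vector libraries, where the lowest PTMA library met the highest vector library.

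Individual libraries weighed on this picture. Vector 3 was the lowest library in 15 of the 37 rows, against 20.3% of all genes, and PTMA 1 was the highest in 14, against 14.2% of all genes. Without vector 3 the median log2 fold change of the pathway was 0.025, without vector 2 it was 0.098 and without PTMA 3 it was 0.087. The number of rows above 0 stayed between 22 and 26 whichever library was left out.

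In 7 genes every PTMA library lay above every vector library, where 5.39% of all genes and 13.0% of those at 100 CPM or more did so. These were Aldoa, Pgk1, Pgam1, Eno3, Pkm, Ldha and Slc16a1. In 3 genes, Hk2, Pgls and Hif1a, every PTMA library lay below every vector library, where 5.37% of all genes did so. Hif1a alone among them had a mean of at least 100 CPM, a level at which 2.29% of all genes lay below in this way. This separation depended on how libraries were scaled. In the FPKM values (a level per exon length and library size) as deposited, 4 genes stood apart upwards (Pgk1, Pgam1, Eno1 and Eno3; 5.48% of all genes) and 2 downwards (Hk2 and Ldhb; 4.62%). Pgk1, Pgam1 and Eno3 above and Hk2 below were the genes that stood apart in TMM-scaled CPM, in CPM by library sums, under median-of-ratios scaling and in FPKM.

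**Figure D1:**
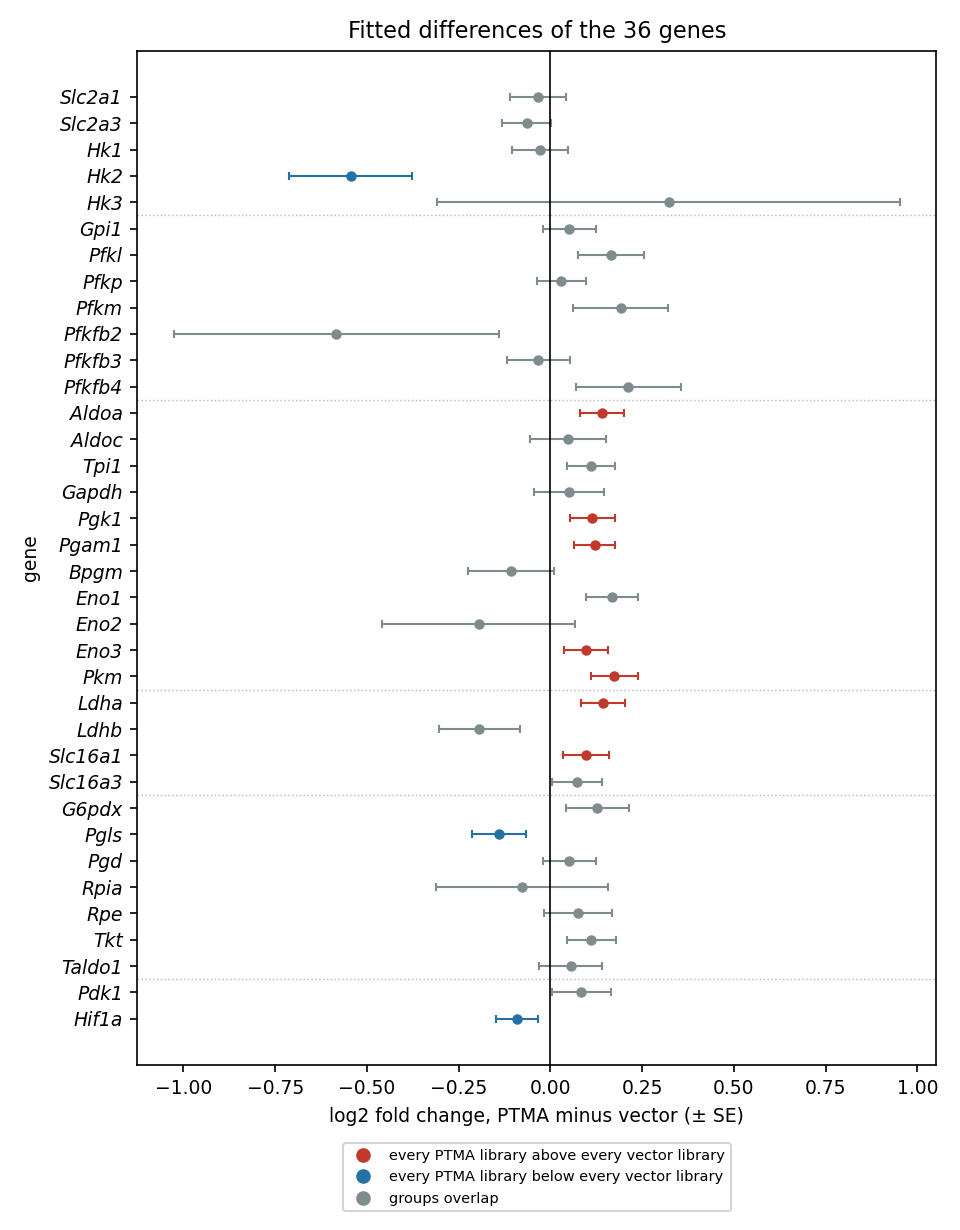
Log2 fold change (PTMA minus vector, horizontal axis) with its standard error for each of the 36 genes, ordered by step and coloured by whether the 3 PTMA libraries lie all above (red), all below (blue) or among (grey) the 3 vector libraries in CPM. The abundant enzymes from Aldoa to Ldha sit between about 0.10 and 0.17, whereas Hk2 sits at -0.54 with a standard error of 0.17.

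Glucose uptake showed no separation. Slc2a1 (GLUT1, the transporter through which activated T cells take up most glucose) had 85.5, 80.5 and 75.3 CPM in PTMA libraries and 85.5, 81.3 and 80.4 CPM in vector libraries. Slc2a3 (GLUT3, a transporter of high affinity) had 171, 190 and 176 CPM in PTMA libraries and 193, 184 and 185 CPM in vector libraries. The groups overlapped in each gene, with log2 fold changes of -0.03 (SE 0.08) for Slc2a1 and -0.06 (SE 0.07) for Slc2a3. In deposited FPKM the 2 transporters were close: Slc2a3 made up 49.2% to 53.3% of their summed FPKM in PTMA libraries and 52.2% to 52.7% in vector libraries. These lengths join all annotated exons, 7245 bases for Slc2a3, whose principal transcript has 3959 bases. Per principal transcript Slc2a3 was higher, at 44.8 RPKM in PTMA libraries and 47.8 RPKM in vector libraries. Slc2a1 had 24.4 and 25.5 RPKM in the same order of groups.

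The hexokinases phosphorylate glucose and trap it in the cell. In CPM the groups overlapped in Hk1 and Hk3 but not in Hk2. Hk1, the isoform of most tissues, had 215, 210 and 217 CPM in PTMA libraries and 228, 231 and 196 CPM in vector libraries, which overlap. Hk2 (ENSMUSG00000000628), the inducible isoform that binds mitochondria and is known to rise with T cell activation, had 7.34, 6.79 and 5.03 CPM in PTMA libraries and 9.94, 9.26 and 8.77 CPM in vector libraries. The highest PTMA library thus lay below the lowest vector library, at a log2 fold change of -0.54 (SE 0.17). These levels rested on 477, 444 and 331 counts in PTMA libraries and 557, 598 and 544 counts in vector libraries. Leaving out each library in turn gave log2 fold changes of Hk2 from -0.66 to -0.38. On the log2(FPKM + 1) scale, which understates changes of low genes, limma gave -0.30, and with a pseudocount of 0.1 it gave -0.51. Hk3, the isoform of myeloid cells, had 16, 106 and 80 counts in PTMA libraries and 25, 74 and 54 counts in vector libraries, with wide overlap.

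Hk1 was by far the main hexokinase RNA in every library. It made up 95.1%, 94.0% and 95.6% of hexokinase FPKM in PTMA libraries and 93.7%, 93.6% and 93.1% in vector libraries. Hk2 made up 4.63%, 4.34% and 3.18% in PTMA libraries and 5.85%, 5.35% and 5.95% in vector libraries. The log2 ratio of Hk2 to Hk1 averaged -4.57 ± 0.30 in PTMA libraries and -4.03 ± 0.08 in vector libraries (SD, n = 3 each). The difference of -0.54 had a 2-sided exact permutation p of 0.1, the smallest that 3 against 3 libraries allow, and 0.6 after adjustment over the 12 isoform pairs compared.

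At the fructose phosphate steps, Gpi1 (glucose phosphate isomerase) had 522, 462 and 470 CPM in PTMA libraries and 476, 487 and 441 CPM in vector libraries, which overlap. Phosphofructokinase, the committed step of glycolysis, is built from liver-type Pfkl, platelet-type Pfkp and muscle-type Pfkm subunits. Pfkl had 258, 257 and 240 CPM in PTMA libraries and 219, 253 and 201 CPM in vector libraries, a log2 fold change of 0.17 (SE 0.09). Only vector 2 reached into the range of the PTMA libraries, and the value was 0.27 without it and 0.09 without vector 3. Pfkp had 478, 455 and 435 CPM in PTMA libraries and 461, 454 and 424 CPM in vector libraries (log2 fold change 0.03, SE 0.07). Pfkm was rare, at 15.1, 11.8 and 14.1 CPM in PTMA libraries and 11.6, 12.7 and 11.7 CPM in vector libraries (log2 fold change 0.19, SE 0.13). The value of Pfkm was 0.11 without PTMA 1 and 0.29 without PTMA 2. In all 3 subunits the groups overlapped.

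Pfkl and Pfkp shared the phosphofructokinase RNA almost evenly in FPKM. Pfkl took 49.0%, 50.7% and 49.5% in PTMA libraries and 46.4%, 50.1% and 46.1% in vector libraries, Pfkp 44.6% to 45.3% and 44.8% to 48.7% in the same order of groups, and Pfkm 4.63% to 5.81% over all 6 libraries. The FPKM lengths follow the union of all annotated exons, which is 13401 bases for Pfkp but 4145 bases for its principal transcript. Per principal transcript Pfkp reached 109 ± 4.79 RPKM in PTMA libraries and 109 ± 7.02 RPKM in vector libraries, above Pfkl at 66.8 ± 2.03 RPKM and 60.8 ± 8.31 RPKM in the same order of groups (SD, n = 3 each). The order of Pfkl and Pfkp therefore changes with the length used. Of the principal Pfkp transcript, 17.1% of all 50-base stretches also occur in transcripts of Pitrm1, which overlaps it on the other strand. None of the 3 ratios between subunits separated the groups. The log2 ratio of Pfkp to Pfkl was lower in PTMA libraries by -0.14 and that of Pfkm to Pfkp higher by 0.16 (exact permutation p = 0.3, adjusted p = 0.6 each), and that of Pfkm to Pfkl higher by 0.01 (exact permutation p = 0.8, adjusted p = 0.873).

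The PFKFB enzymes make and remove fructose bisphosphate of the kind that activates phosphofructokinase. Pfkfb3, the isoform with the strongest kinase activity, was the main one, at 29.4 to 31.6 CPM in PTMA libraries and 30.0 to 32.2 CPM in vector libraries. Pfkfb4 had 10.5, 11.7 and 11.5 CPM in PTMA libraries and 8.84, 11.5 and 8.83 CPM in vector libraries, where vector 2 alone reached the PTMA range. Pfkfb2, the isoform known from heart, lay at 1.05 to 1.52 CPM in PTMA libraries and 1.08 to 3.30 CPM in vector libraries. Its log2 fold change of -0.58 (SE 0.44) was carried by vector 2 and turned to 0.12 without that library. The log2 ratios of Pfkfb4 and of Pfkfb2 to Pfkfb3 overlapped between the groups.

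**Figure D2:**
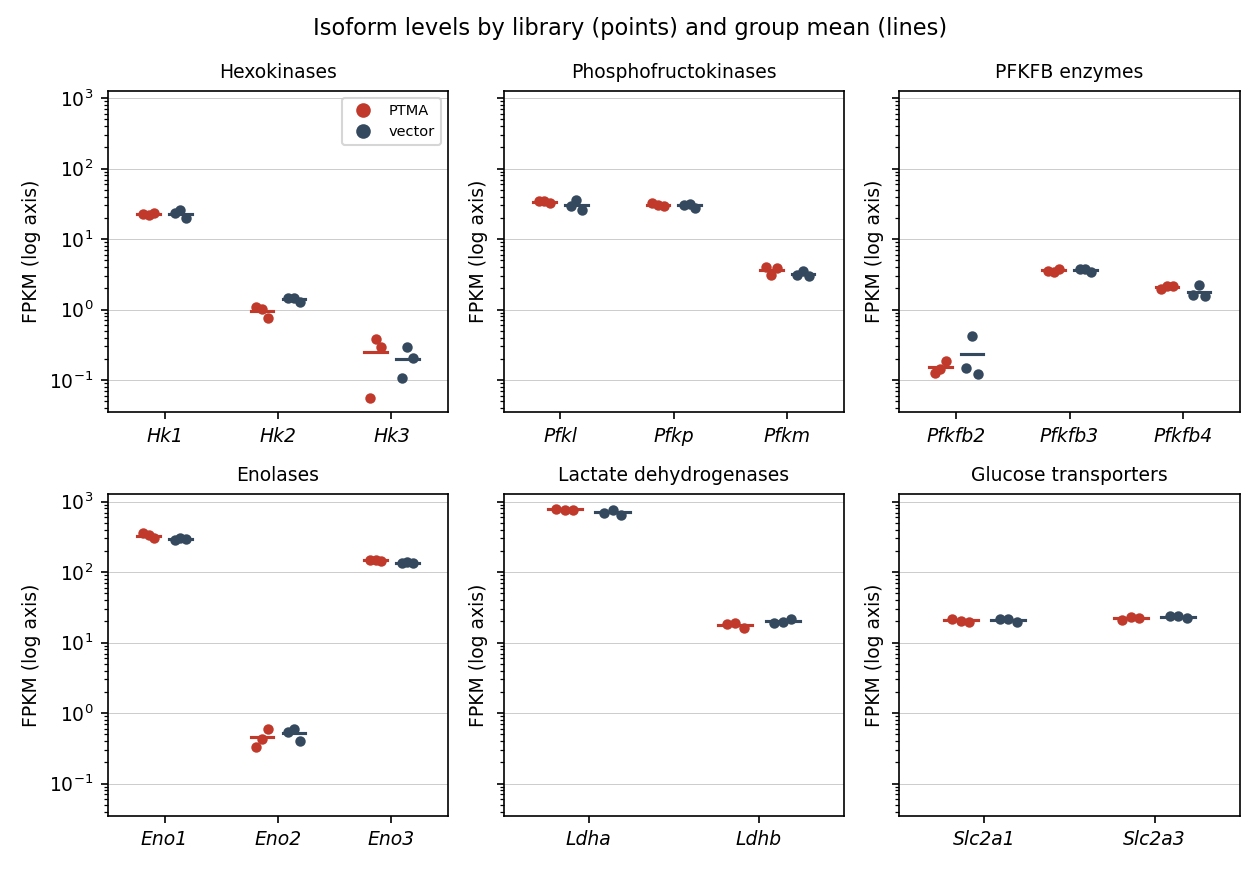
FPKM (log axis) of the isoforms of 6 steps in each library (points) with group means (lines), PTMA in red left of vector in grey. Hk1, Eno1 and Ldha dominate their families in all 6 libraries, Pfkl and Pfkp lie at the same level, and Hk2 lies between 0.77 and 1.11 FPKM in PTMA libraries against 1.27 to 1.48 FPKM in vector libraries.

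From aldolase to pyruvate kinase 9 of 11 genes had a fold change above 0, against 46.8% of all genes and 67.5% of those at 100 CPM or more. In CPM 5 of the 11 separated the groups upwards, against 5.39% and 13.0%, and of these Aldoa and Pkm overlapped in FPKM. Their summed level was 7597, 7278 and 6879 CPM in PTMA libraries and 6496, 6588 and 6546 CPM in vector libraries, 1.11-fold as high in the mean. Aldoa (ENSMUSG00000030695), the aldolase of muscle and most tissues, which cleaves fructose bisphosphate, had 1245, 1200 and 1137 CPM in PTMA libraries and 1076, 1108 and 1066 CPM in vector libraries (log2 fold change 0.14, SE 0.06). A further row also named Aldoa, with another identifier, held 8 to 29 counts in PTMA libraries and 20 to 51 in vector libraries. Aldoc, the brain-type aldolase, had 30.5 to 33.8 CPM in PTMA libraries and 27.8 to 34.5 CPM in vector libraries and made up 2.27% to 2.70% of aldolase FPKM in the 6 libraries. Tpi1 (triose phosphate isomerase) had 648, 583 and 616 CPM in PTMA libraries and 565, 554 and 592 CPM in vector libraries, where vector 3 lay above PTMA 2.

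Pgk1 (phosphoglycerate kinase, the step that first yields ATP) had 490, 477 and 483 CPM in PTMA libraries and 437, 431 and 471 CPM in vector libraries (log2 fold change 0.11, SE 0.06). The lowest PTMA library lay just above vector 3. Pgam1 (phosphoglycerate mutase) had 459, 449 and 456 CPM in PTMA libraries and 424, 421 and 409 CPM in vector libraries (log2 fold change 0.12, SE 0.06). On this scale the gap between the groups was wider than the range within either. In FPKM it was narrow, from 199.9 in vector 2 to 201.6 in PTMA 2. Bpgm, which makes the bisphosphoglycerate known from red cells, had 23.0 to 28.3 CPM in PTMA libraries and 24.8 to 29.5 CPM in vector libraries. Its log2 fold change was -0.11 (SE 0.12), and -0.21 to -0.04 with a library left out.

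The enolases turn phosphoglycerate into phosphoenolpyruvate. Eno1, the form of most tissues, had 2111, 2023 and 1790 CPM in PTMA libraries and 1739, 1722 and 1812 CPM in vector libraries (log2 fold change 0.17, SE 0.07). PTMA 3 lay inside the vector range, so the difference was that of PTMA 1 and 2. Eno3, the muscle enolase, had 285, 286 and 278 CPM in PTMA libraries and 265, 255 and 274 CPM in vector libraries (log2 fold change 0.10, SE 0.06). Eno3 held 29.4% to 32.4% of enolase FPKM, while the muscle markers Ckm and Acta1 stood at no more than 1.29 and 0.37 CPM in PTMA libraries and 1.13 and 0.55 CPM in vector libraries. Per principal transcript, Eno1 was at 965 ± 74.6 RPKM in PTMA libraries and 875 ± 4.54 RPKM in vector libraries, and Eno3 at 179 ± 1.02 and 171 ± 3.15 RPKM in the same order of groups (SD, n = 3 each). Eno2, the neuronal enolase, reached 1.80 to 3.10 CPM in PTMA libraries and 2.24 to 3.10 CPM in vector libraries.

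Pkm, the pyruvate kinase of T cells, had 2241, 2153 and 2003 CPM in PTMA libraries and 1874, 1978 and 1817 CPM in vector libraries. PTMA 3 and vector 2 lay close together, and the log2 fold change was 0.17 (SE 0.07). The table counts whole genes, so that its splice forms M1 and M2 were not analysed here.

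Gapdh, which oxidises glyceraldehyde phosphate and is among the most abundant mRNAs of most cells, ranked 4318 of 27480 genes in mean FPKM, against rank 41 for Ldha, 95 for Pkm and 99 for Aldoa. Its row held 54.6, 49.5 and 58.9 CPM in PTMA libraries and 52.3, 56.5 and 48.6 CPM in vector libraries. The mouse genome holds many processed copies of this gene, and 82.5% of the 50-base stretches of its principal transcript also occur in transcripts of other genes. Of the genes in the table, 71 shared at least 10% of these stretches, and 12 of them had more counts than Gapdh itself. The coding sequence of Gapdh is shown because its beginning, 90 bases given here in lower case from GENCODE M21, is the same in Gapdh (chromosome 6) and in the 3 most counted copies, Gm7336 (chromosome 7), Gm5559 (chromosome 5) and Gm2606 (chromosome 15).
Gapdh, Gm7336, Gm5559 and Gm2606: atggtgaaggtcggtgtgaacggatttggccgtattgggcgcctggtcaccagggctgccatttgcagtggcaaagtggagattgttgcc
Over all 999 coding bases the copies differ from Gapdh at 0 bases for Gm7336 and at 1 each for Gm5559 and Gm2606, so reads from these stretches cannot be assigned by sequence.

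The 71 copies held 97.9%, 97.8% and 97.5% of the counts of Gapdh and its copies together in PTMA libraries and 97.7%, 97.5% and 97.8% in vector libraries. Summed with its copies Gapdh reached 2586, 2225 and 2345 CPM in PTMA libraries and 2241, 2273 and 2188 CPM in vector libraries, a level like that of Eno1 and Pkm. Whether a read that fits several copies was counted once, more than once or not at all is not stated in the labels or headers, so the sum may hold a read more than once. PTMA 2 lay inside the vector range, and the log2 fold change of the sum was 0.09 (SE 0.07; adjusted p = 0.951 in edgeR), against 0.05 (SE 0.10) for the Gapdh row alone. Of the 59 copies tested, 31 had a fold change above 0 and 0 were called. Among the other genes, copies held 8.47% to 9.42% of the sum for Eno1, 5.06% to 5.78% for Pgam1, 2.97% to 3.37% for Pgk1 and under 1% for Pkm over the 6 libraries, and adding them moved no log2 fold change of these 4 by more than its standard error.

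**Figure D3:**
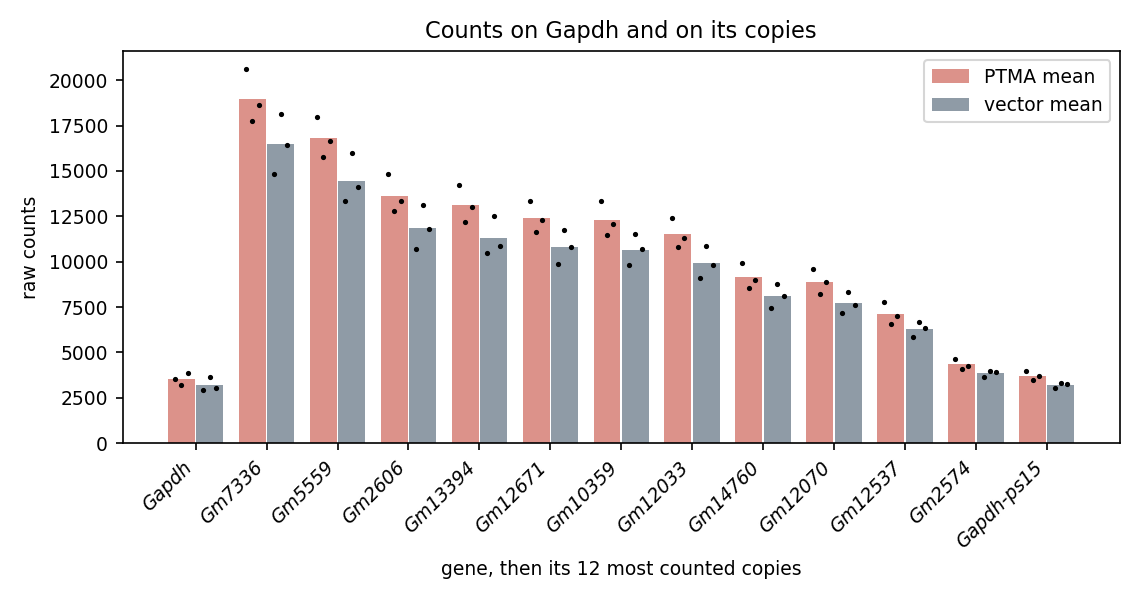
Raw counts, not scaled for library size (vertical axis from 0), of Gapdh and of its 12 most counted copies, as means of the 3 PTMA libraries (red, left) and the 3 vector libraries (grey, right) with each library as a point. Each of these copies has more counts over the 6 libraries than Gapdh, and the most counted, Gm7336, stands far above it in both groups.

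Lactate genes formed the other abundant block. Ldha (lactate dehydrogenase A, which favours lactate formation) was the most abundant gene of the pathway, at 2927, 2813 and 2797 CPM in PTMA libraries and 2556, 2718 and 2458 CPM in vector libraries (log2 fold change 0.14, SE 0.06). In CPM every PTMA library lay above vector 2, the highest vector library. In FPKM, Ldha had 796, 756 and 769 in PTMA libraries and 687, 773 and 645 in vector libraries, where vector 2 exceeded PTMA 2 and 3. Slc16a1 (MCT1, a lactate transporter) had 128, 124 and 131 CPM in PTMA libraries and 120, 118 and 120 CPM in vector libraries (log2 fold change 0.10, SE 0.06), with a narrow gap between the groups. Slc16a3 (MCT4, the exporter of strongly glycolytic cells) had 143 to 146 CPM in PTMA libraries and 129 to 145 CPM in vector libraries, where vector 1 lay above PTMA 2. The 2 transporters had equal shares of their summed FPKM within a few percent, with Slc16a3 at 48.2% to 49.0% in PTMA libraries and 47.2% to 50.1% in vector libraries.

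Ldhb, the subunit that favours the use of lactate, leaned the other way. It had 31.8, 33.6 and 27.5 CPM in PTMA libraries and 33.9, 33.0 and 39.2 CPM in vector libraries (log2 fold change -0.19, SE 0.11). Only PTMA 2 lay inside the vector range. The log2 fold change of Ldhb was -0.10 without PTMA 3 and -0.11 without vector 3. Ldhb made up 2.24%, 2.45% and 2.02% of lactate dehydrogenase FPKM in PTMA libraries and 2.72%, 2.49% and 3.25% in vector libraries. The log2 ratio of Ldhb to Ldha averaged -5.45 ± 0.14 in PTMA libraries and -5.11 ± 0.20 in vector libraries (SD, n = 3 each). All PTMA libraries lay below all vector libraries, a difference of -0.34 with a 2-sided exact permutation p of 0.1, the smallest possible, and 0.6 after adjustment over the 12 pairs. Without each library in turn this difference lay between -0.43 and -0.23. Of the 12 pairs, Hk2 to Hk1 and Ldhb to Ldha were the ones whose groups did not overlap. When libraries are permuted, such separation in either direction has a probability of 0.1 for each pair.

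A near copy of Ldhb behaved more sharply. Ldhb-ps (ENSMUSG00000045104, chromosome 19, 21937380 to 21938381 on GRCm38) differs from Ldhb at 20 of 1002 coding bases, 98.0% identity. The first 90 coding bases of each, from GENCODE M21, are shown in lower case, with capitals at the 3 bases where the copy differs, because these are the positions by which reads can be told apart.
Ldhb: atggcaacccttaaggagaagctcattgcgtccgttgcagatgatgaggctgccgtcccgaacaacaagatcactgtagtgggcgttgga
Ldhb-ps: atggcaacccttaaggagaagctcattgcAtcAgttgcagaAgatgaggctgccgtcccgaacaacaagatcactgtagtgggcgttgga
Ldhb-ps held 6, 13 and 5 counts in PTMA libraries and 61, 71 and 93 counts in vector libraries. In CPM this was 0.12 ± 0.07 in PTMA libraries and 1.23 ± 0.23 in vector libraries (SD, n = 3 each), a log2 fold change of -3.31 (SE 0.49) whose adjusted p in edgeR was 0.168. Its counts were 0.28% to 0.59% of those of Ldhb and the copy together in PTMA libraries and 3.11% to 3.68% in vector libraries. Summed with the copy, Ldhb had a log2 fold change of -0.24 (SE 0.11; adjusted p = 0.951 in edgeR).

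Markers of oocytes differed in the same direction. These markers were chosen with earlier results of these data known, so their difference is not an independent result. Summed over Gdf9, Zp3, Nlrp5 and Oosp1 they reached 1.43, 2.66 and 4.09 CPM in PTMA libraries and 31.0, 20.6 and 23.3 CPM in vector libraries. All 4 had lower means in PTMA libraries. In Gdf9 and Zp3 every PTMA library lay below every vector library, as in 5.37% of all genes, whereas Nlrp5 and Oosp1 overlapped. Zp3 was at 0 in PTMA 2, and Nlrp5 was at 0 in PTMA 1 and 3. Gdf9 alone had 0.62, 1.87 and 1.28 CPM in PTMA libraries and 24.7, 12.4 and 19.3 CPM in vector libraries (adjusted p = 0.0397 in edgeR). The part of such RNA in the levels of Ldhb and its copy was not tested, nor its part in Hk2.

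**Figure D4:**
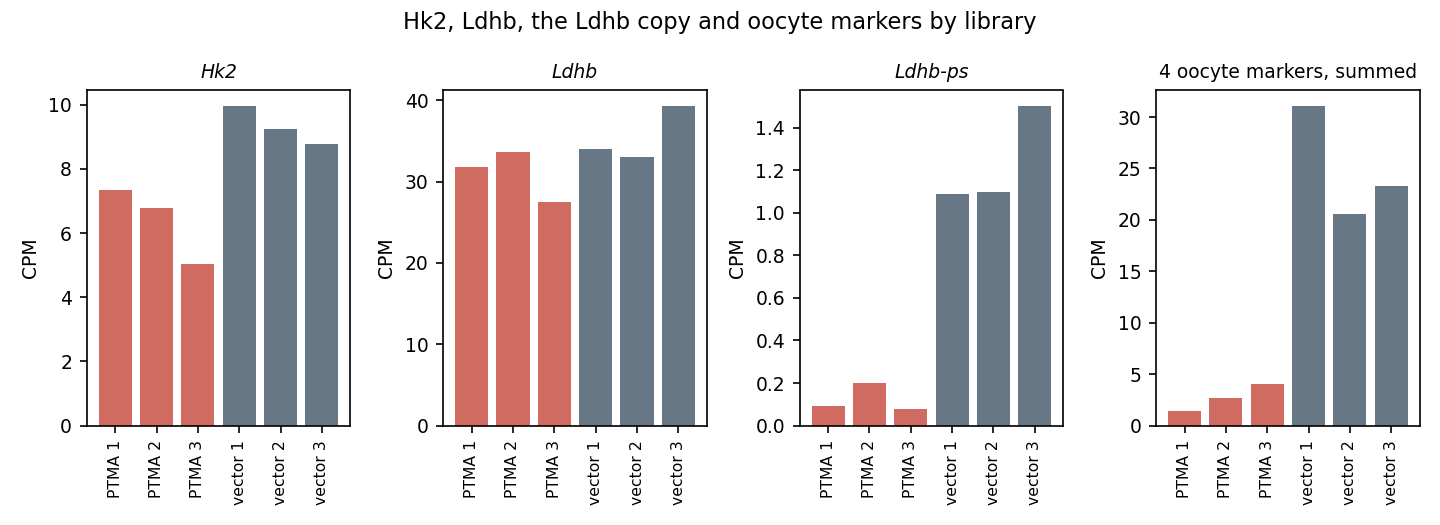
CPM (vertical axes from 0, a scale for each panel) of Hk2, Ldhb, its copy Ldhb-ps and the sum of 4 oocyte markers in each library, PTMA 1 to 3 (red) left of vector 1 to 3 (grey). Hk2 is lower in all 3 PTMA libraries, Ldhb overlaps through PTMA 2, and Ldhb-ps and the sum of the oocyte markers are several times lower in every PTMA library.

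Of the 7 pentose phosphate genes, 5 had a fold change above 0, against 46.8% of all genes and 67.5% of those at 100 CPM or more. In 6 of them the groups overlapped, and Pgls alone separated, downwards, as 5.37% of all genes did. In the oxidative arm, G6pdx (glucose phosphate dehydrogenase, the entry step) had 149, 144 and 132 CPM in PTMA libraries and 138, 134 and 116 CPM in vector libraries (log2 fold change 0.13, SE 0.09), which overlap. This value was 0.06 without vector 3 and 0.19 without PTMA 3. Pgls, the lactonase that follows, was lower in PTMA libraries, at 78.7, 81.0 and 85.6 CPM against 89.6, 95.0 and 85.6 CPM in vector libraries (log2 fold change -0.14, SE 0.07). Without vector 2 it was -0.09. PTMA 3 and vector 3 were level there, at 85.61 and 85.62 CPM, and the gene shares its strand and part of its locus with Fam129c. Pgd (phosphogluconate dehydrogenase, the step that releases ribulose phosphate) had 139, 139 and 146 CPM in PTMA libraries and 133, 146 and 129 CPM in vector libraries, with vector 2 in the PTMA range.

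In the other arm, Tkt (transketolase) had 547, 521 and 495 CPM in PTMA libraries and 479, 505 and 462 CPM in vector libraries (log2 fold change 0.11, SE 0.07). Here vector 2 lay above PTMA 3. Taldo1 (transaldolase) had 174, 174 and 165 CPM in PTMA libraries and 154, 154 and 186 CPM in vector libraries, where vector 3 was the highest of all and vector 1 and 2 the lowest. Rpe (ribulose phosphate epimerase) had 65.0 to 67.7 CPM in PTMA libraries and 57.5 to 70.7 CPM in vector libraries, and Rpia (ribose phosphate isomerase) 2.02 to 2.72 CPM and 2.03 to 2.74 CPM in the same order of groups. Summed, the 7 genes reached 1091 to 1154 CPM in PTMA libraries and 1052 to 1095 CPM in vector libraries.

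Of the regulators, Hif1a (ENSMUSG00000021109, the oxygen-sensitive subunit that switches on many glycolysis genes) had 473, 489 and 499 CPM in PTMA libraries and 524, 516 and 515 CPM in vector libraries. All PTMA libraries lay lower in CPM, at a log2 fold change of -0.09 (SE 0.06), and the groups overlapped in FPKM. Pdk1 (the kinase that holds back pyruvate dehydrogenase, itself a HIF target) had 109, 119 and 130 CPM in PTMA libraries and 114, 115 and 109 CPM in vector libraries, which overlap.

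The promoters of the pathway were read for the letters that HIF and Myc are known to bind. RefSeq promoters on GRCm38.p6, from 250 bases before to 50 after each start, were matched by symbol for 35 of the 36 genes, with 51 promoters. The letters ACGTG or GCGTG, the core of a HIF site, on either strand stood in 40 of the 51, 78.4%, against 43.8% of 32851 promoters of all genes. ACGTG alone stood in 43.1% against 19.6%, and the E-box CACGTG, which contains ACGTG on both strands, in 11.8% against 7.15%. The promoters of the pathway were also richer in G and C, with a median of 60.3% against 52.7%. A match describes letters and does not show that a factor binds.

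The promoters of Ldha and Pgk1, higher in every PTMA library in CPM, and of Hk2, lower in every one, are printed with the matches in capitals, since all 3 hold the same core letters. They are given 5′ to 3′ on the strand of the gene. Ldha (chr7:46845554-46845853, plus strand) holds 7 matches over both strands, 4 of them within 2 copies of CACGTG, Pgk1 (chrX:106186850-106187149, plus strand) holds 2, and Hk2 (chr6:82774405-82774704, minus strand) holds 2. A further Ldha promoter (chr7:46846832-46847131), not printed, holds 2 matches and no CACGTG.
Ldha: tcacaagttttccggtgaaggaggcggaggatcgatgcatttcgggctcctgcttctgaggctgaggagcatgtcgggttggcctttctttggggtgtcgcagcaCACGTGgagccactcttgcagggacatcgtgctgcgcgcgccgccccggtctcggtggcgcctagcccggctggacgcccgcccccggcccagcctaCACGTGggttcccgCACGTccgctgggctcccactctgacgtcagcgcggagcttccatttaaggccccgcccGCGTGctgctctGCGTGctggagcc
Pgk1: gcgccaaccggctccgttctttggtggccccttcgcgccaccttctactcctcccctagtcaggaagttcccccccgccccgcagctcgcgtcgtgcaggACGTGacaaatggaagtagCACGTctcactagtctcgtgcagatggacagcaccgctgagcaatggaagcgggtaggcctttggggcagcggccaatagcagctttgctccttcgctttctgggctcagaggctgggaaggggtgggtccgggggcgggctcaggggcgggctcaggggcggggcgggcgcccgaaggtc
Hk2: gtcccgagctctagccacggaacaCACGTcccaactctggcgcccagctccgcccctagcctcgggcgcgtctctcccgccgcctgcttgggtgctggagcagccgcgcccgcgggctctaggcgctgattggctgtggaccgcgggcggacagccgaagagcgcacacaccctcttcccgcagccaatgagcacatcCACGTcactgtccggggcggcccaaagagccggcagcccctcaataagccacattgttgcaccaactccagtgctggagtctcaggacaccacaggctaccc

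The rest of the pathway was read from 5 further lists, in which edgeR called 0 genes in either direction. Their counts above 0 stand beside 46.8% of all genes and 67.5% of those at 100 CPM or more. Of 10 tested isoforms and partners, 6 had a fold change above 0, among them Bsg (basigin, the chaperone of the lactate transporters), with 347.5 to 372 CPM in PTMA libraries and 326 to 355.5 CPM in vector libraries, and Adpgk, which phosphorylates glucose with ADP, with 43.6 to 52.9 CPM and 42.8 to 45.4 CPM in the same order of groups. Pfkfb1 had 3.86 to 7.30 CPM in PTMA libraries and 3.55 to 5.23 CPM in vector libraries.

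Of 12 glycogen and gluconeogenesis genes, 10 had a fold change above 0. Those with the smallest p-values were Pygm (muscle glycogen phosphorylase), with 1.93 to 2.69 CPM in PTMA libraries and 0.89 to 1.83 CPM in vector libraries, Galm (galactose mutarotase) and G6pc3 (a ubiquitous glucose phosphatase), at log2 fold changes of 0.64, 0.22 and 0.13 and adjusted p of 0.951 each in edgeR. Of 12 genes of pyruvate entry to mitochondria, 7 were above 0. Those with the smallest p-values were Mpc1 (a subunit of the mitochondrial pyruvate carrier), Pcx (pyruvate carboxylase) and Pdk3 (a kinase of pyruvate dehydrogenase), at log2 fold changes of 0.18, 0.20 and 0.10. All 12 overlapped between the groups.

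Of 14 other NADPH and pentose genes, 8 were above 0. Me1, the cytosolic malic enzyme, was at 0.35, 0.12 and 0 CPM in PTMA libraries and 0.93, 0.62 and 0.90 CPM in vector libraries, whereas Me2, the mitochondrial form, had 306, 327 and 291 CPM in PTMA libraries and 270, 270 and 293.5 CPM in vector libraries (log2 fold change 0.15). Prps1, which makes phosphoribosyl pyrophosphate, had a log2 fold change of 0.15. Of 15 regulators, 8 were above 0. Txnip, a glucose-induced brake on glucose uptake, had 232, 236 and 269 CPM in PTMA libraries and 262, 270 and 307 CPM in vector libraries, with PTMA 3 inside the vector range. Egln3, an oxygen sensor that HIF induces, had 20.7, 22.1 and 21.1 CPM in PTMA libraries and 17.1, 18.8 and 19.4 CPM in vector libraries. These do not overlap, and the adjusted p was 0.951 in edgeR. Of the 15 regulators 1 stood apart upwards in this way, where 5.39% of all genes did. Arnt, the partner of Hif1a, had 40.1 to 44.5 CPM in PTMA libraries and 43.5 to 55.6 CPM in vector libraries.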

How the data were processed

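The authors deposited one table of raw counts per gene and library, and FPKM, per the file headers. Bowtie 0.12.2, HISAT2 2.0, StringTie 1.3.0 and the build mm8 appear, with no role, in the submitters' processing notes. All 37 rows share a start or end with GENCODE M21, so coordinates are on GRCm38. How reads were counted (strand, multiple matches) is not given in the sources used here. Group and replicate number came from the titles. The fit used edgeR 4.0.16 (R 4.3.3), TMM, filterByExpr (minimum count 10), group only and an adjusted p threshold of 0.05. Isoform ratios used deposited FPKM and exact permutation tests over libraries. Alternatives used limma 3.58.1 and DESeq2 1.42.0. All 36 members, Ptma, up to 3 genes of the smallest p in each further list, and markers are named. Members and lists were chosen with earlier results of these data known. A copy is another gene outside the locus that shares at least 10% of the 50-base stretches of the principal transcript. The procedure was tested on simulated data. Replicates were not duplicates, at a chi-square per gene of 16.4 to 76.2.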

Additional observations from a re-analysis of the deposited data

How the results depend on the processing

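No pathway gene was called under any of the 15 other settings, the lowest adjusted p being 0.222 (Hk2). The 2 genes called in all became 42 with DESeq2, 1 with limma on log2(FPKM + 1) and 1 with a pseudocount of 0.1, 0 with limma and no filter, 0 with no filter on counts, and 0 to 4 with a library left out. Deviations of libraries that share a number correlated at -0.12, -0.156 and -0.117, so no pairing by number was seen. These values cannot tell whether such libraries shared an animal or culture. A replicate block called 0 genes. Among the 37 rows, 28 kept their direction under all settings run. The other 9 turned with a library left out, over ranges of -0.0047 to 0.0778 for Pfkp, -0.0053 to 0.0895 for Gpi1, -0.167 to 0.786 for Hk3, -0.191 to 0.0175 for Rpia, -0.0796 to 0.0256 for Slc2a1, -0.0988 to 0.0241 for Hk1, -0.859 to 0.12 for Pfkfb2, -0.026 to 0.139 for Aldoc and -0.00141 to 0.115 for Gapdh. Isoform ratios that turned likewise were Pfkm to Pfkl (-0.0463 to 0.135), Slc2a3 to Slc2a1 (-0.0706 to 0.048), Slc16a3 to Slc16a1 (-0.0757 to 0.00604) and Pfkfb2 to Pfkfb3 (-0.667 to 0.144). The median of the pathway was 0.0294 when libraries were scaled by their sums. Genes with every PTMA library above every vector library numbered 7 in CPM and 4 in FPKM, and the scalings and the sums with copies were compared after the data were seen. The cause of these shifts was not tested. Counting error is small at these depths for all but Hk3, Pfkfb2, Eno2, Rpia and the further Aldoa row.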
